A study of Mus musculus with 18 samples.

Results

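Gdf15 and Fgf21 encode hormones that stressed hepatocytes release into the blood. Only their liver RNA was read here, and no protein, so a rise or fall of a hormone below is one of its RNA. These 2 genes were followed by symbol through a mouse liver expression series in which 23930 genes were listed, and each gene was read by 1 amplicon of a targeted panel. In all 6 groups the mice carried Yap fl/fl alleles and received an adeno-associated virus at 8 weeks of age, with expression driven in hepatocytes by the TBG promoter. Knockout mice received AAV-TBG-Cre (5e+10 genome copies per mouse), overexpressing mice a TBG virus carrying YAP and EGFP (2e+11), and control mice AAV-TBG-GFP (2e+11), so the dose of virus was lower in knockout mice than in the others. After 2 weeks, each of these 3 genotypes was moved to a liquid diet with 5 days of acclimation. Mice then had 4 weeks of ethanol diet ended by an ethanol gavage (33% v/v, 5 g/kg), or the pair-fed control diet ended by maltose-dextrin, and livers were taken 9 h later. Each of the 6 groups held 3 libraries, 18 in all.

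Gdf15 is a distant member of the TGF-beta superfamily. It circulates and acts on GFRAL, a receptor of the hindbrain that signals through RET and lowers food intake. Fgf21 is an endocrine fibroblast growth factor made mainly by the liver, and it signals through FGF receptors joined to the co-receptor beta-Klotho (Klb). Both genes are known targets of ATF4 and CHOP (encoded by Ddit3), transcription factors of the integrated stress response. Fgf21 is also known as a target of PPARA during fasting and of ChREBP after sugar, and Gdf15 as a target of p53. YAP, the coactivator that the viruses remove or supply, works with TEAD factors, and the series title gives endoplasmic reticulum stress and ATF6 as the topic.

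Some features of the libraries touch every comparison below. Depth was 4.68 to 5.81 M reads per library, with a median of 5.47 M. Yap1 read 3.34 to 15.1 CPM (a gene's reads scaled to a common library total) in the knockout libraries and 51.5 to 66.6 CPM in the control libraries. In overexpressing mice Yap1 read 57.6 CPM in pair-fed replicate 1, a level inside the control range, and 106.4 to 214 CPM in the other 5 libraries. Xist RNA was present, and the Y-linked gene Ddx3y nearly absent, in all 3 pair-fed knockout libraries and in pair-fed control replicates 2 and 3, and the reverse held in the other 13. Ethanol and sex therefore cannot be told apart in knockout mice and are mostly confounded in control mice, while all 6 overexpressing libraries had Ddx3y above Xist. Nothing in the labels ties each library to its own animal, and p-values therefore measure a spread between libraries that may be technical. Of the markers of exocrine pancreas, a tissue that also makes Fgf21, Cela1 read 15.4 to 48.3 CPM and the others at most 3.56 CPM. Hepatocyte markers summed to 38573 to 80106 CPM, and this is whole liver, in which fewer cells of a type and less RNA per cell cannot be told apart.

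The stretches upstream of both genes are shown because the study concerns stress factors and a TEAD coactivator. In GENCODE M21 on GRCm38, Fgf21 spans chr7:45613886-45615490 on the minus strand, with 1 transcript of 3 exons, and Gdf15 spans chr8:70629393-70632456 on the minus strand, with 2 transcripts of 2 or 3 exons. Neither gene overlapped another annotated gene. Given next are the 250 bases before the RefSeq start of each gene (GRCm38.p6), 5′ to 3′ on the gene's strand, with matches to the searched motifs in capitals. The Fgf21 window is chr7:45615491-45615740 and the Gdf15 window is chr8:70632457-70632706.
Fgf21: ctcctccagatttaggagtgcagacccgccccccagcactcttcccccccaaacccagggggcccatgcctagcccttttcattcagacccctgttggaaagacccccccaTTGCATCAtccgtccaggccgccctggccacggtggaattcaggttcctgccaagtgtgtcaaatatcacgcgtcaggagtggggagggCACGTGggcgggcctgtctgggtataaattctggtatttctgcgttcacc
Gdf15: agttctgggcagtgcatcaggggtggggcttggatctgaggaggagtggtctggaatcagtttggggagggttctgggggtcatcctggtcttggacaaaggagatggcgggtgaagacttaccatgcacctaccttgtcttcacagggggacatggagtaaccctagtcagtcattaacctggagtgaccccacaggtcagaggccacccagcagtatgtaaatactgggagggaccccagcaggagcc

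The Fgf21 window held TTGCATCA, the reverse strand of the composite ATF4 and C/EBP motif TGATGNAA, 139 bases before the start, and the E box CACGTG 50 bases before it. The Gdf15 window held none of the 7 motifs searched on both strands. A second RefSeq start of Gdf15 lies inside the gene, and the window before it, which is not printed, held a TEAD match and an E box. Among 32851 windows of the same length, TGATGNAA occurred in 3.45%, CACGTG in 6.02%, the TEAD motif GGAATG in 12.6% and the AP-1 motif TGANTCA in 6.75%. The other 3 motifs were rarer, with 0.113% for the ER stress element, 0.563% for the ATF6 and XBP1 element TGACGTGG and 0.0335% for the direct repeat bound by PPARA, the first and last named here without their letters. The matches in the Fgf21 window did not overlap, and a match describes letters in a window and not a bound site.

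Both genes ranked among the most variable of the liver. Gdf15 was covered by 6 to 373 reads per library, a 63.2-fold range in CPM around a mean of 28.0 CPM. Fgf21 was covered by 23 to 621 reads, a 27.5-fold range around a mean of 28.8 CPM. The panel reads 1 amplicon per gene and CPM is not scaled to length, so the levels of the 2 genes cannot be set against each other. Among the 11720 genes tested, those that reached 1 CPM in 3 or more libraries, the residual SD between libraries of a group was 0.89 on the log2 scale for Gdf15 and 1.18 for Fgf21. These stood at the 98.7th and 99.6th percentile of all genes, so libraries of 1 group differed far more in these hormones than in most genes.

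Gdf15 read 41.2, 69.2 and 65.1 CPM in ethanol-fed knockout libraries, against 10.5, 15.6 and 15.3 CPM in pair-fed knockout libraries. It read 17.5, 9.39 and 43.9 CPM in ethanol-fed overexpressing libraries, against 18.7, 34.6 and 26.2 CPM in pair-fed overexpressing libraries. In control mice it read 8.55, 59.3 and 58.3 CPM on ethanol, against 2.80, 1.10 and 6.69 CPM pair-fed. All 3 ethanol libraries lay above all 3 pair-fed libraries in knockout and in control mice, whereas in overexpressing mice the diets overlapped. The lowest value, 1.10 CPM in pair-fed control replicate 2, rested on 6 reads, with an exact Poisson interval of 0.40 to 2.38 CPM that covers counting error alone.

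By group mean ± SD (n = 3), Gdf15 stood at 58.5 ± 15.1 CPM in ethanol-fed knockout and 13.8 ± 2.89 CPM in pair-fed knockout mice, 23.6 ± 18.1 CPM in ethanol-fed and 26.5 ± 7.94 CPM in pair-fed overexpressing mice, and 42.0 ± 29.0 CPM in ethanol-fed and 3.53 ± 2.87 CPM in pair-fed control mice. Ranked by mean, ethanol-fed knockout mice were highest, then ethanol-fed control, pair-fed overexpressing, ethanol-fed overexpressing, pair-fed knockout and pair-fed control mice. Of the neighbours in that order, the lowest pair, pair-fed knockout and pair-fed control mice, did not overlap, and each other pair did. Pair-fed control livers were thus the low end of the series for Gdf15, with no library above 6.69 CPM.

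Fgf21 read 49.6, 115.2 and 4.35 CPM in ethanol-fed knockout libraries, against 6.91, 12.6 and 8.36 CPM in pair-fed knockout libraries. It read 61.6, 12.0 and 13.6 CPM in ethanol-fed overexpressing libraries, against 16.7, 28.9 and 8.25 CPM in pair-fed overexpressing libraries. In control mice it read 40.8, 50.02 and 69.9 CPM on ethanol, against 4.38, 4.20 and 10.7 CPM pair-fed. The diets separated in control mice. In knockout mice ethanol-fed replicate 3 lay below all 3 pair-fed libraries, at 24 reads and an exact Poisson interval of 2.79 to 6.47 CPM, while replicates 1 and 2 lay above them. In overexpressing mice ethanol-fed replicate 1 was high and the other 2 ethanol libraries lay inside the pair-fed range.

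By group mean ± SD (n = 3), Fgf21 stood at 56.4 ± 55.7 CPM in ethanol-fed and 9.29 ± 2.96 CPM in pair-fed knockout mice, 29.0 ± 28.2 CPM in ethanol-fed and 17.9 ± 10.4 CPM in pair-fed overexpressing mice, and 53.6 ± 14.9 CPM in ethanol-fed and 6.43 ± 3.71 CPM in pair-fed control mice. The order of means ran from ethanol-fed knockout through ethanol-fed control, ethanol-fed overexpressing, pair-fed overexpressing and pair-fed knockout to pair-fed control mice. All neighbours in that order overlapped. The 3 ethanol groups therefore held the 3 highest means of Fgf21, which was not so for Gdf15.

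**Figure D1:**
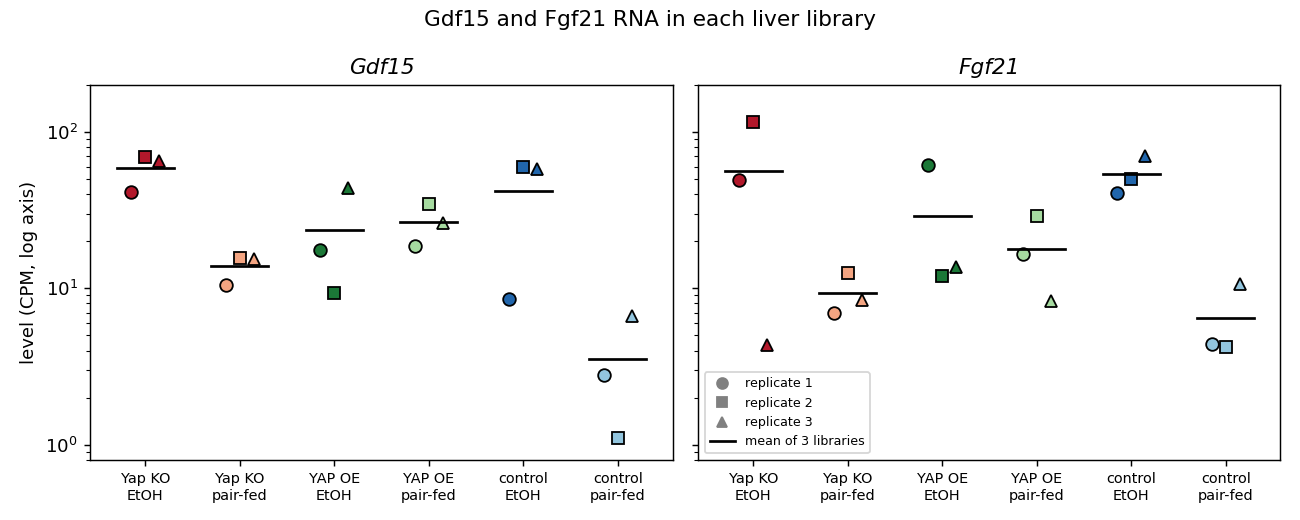
Levels of Gdf15 and Fgf21 in each of the 18 livers, in CPM on a log axis, by group, with a point for each library and a line at the mean of the 3. Gdf15 separates by diet in knockout and control mice, and Fgf21 in control mice.

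The first comparison asks how chronic and binge ethanol changed each hormone where YAP was left at its own level. In control mice both rose, Gdf15 to 42.0 CPM on ethanol against 3.53 CPM pair-fed, 11.9-fold by means, and Fgf21 to 53.6 against 6.43 CPM, 8.34-fold. On the log2(CPM + 1) scale, on which the change of a gene near 1 CPM is understated, limma gave log2 changes ± SE of 3.04 ± 0.60 for Gdf15 (95% interval 1.79 to 4.30, adjusted p 0.011) and 2.95 ± 0.78 for Fgf21 (1.32 to 4.59, adjusted p 0.0475). By limma, 2.7% of all tested genes were called in this comparison, 120 higher and 196 lower, and with TMM scaling 172 higher and 120 lower. By p-value Gdf15 was the 72nd gene and Fgf21 the 313th of the 316 called, so Fgf21 stood at the edge of the threshold. It passed in no limma fit that left out any of the 6 control libraries, and Gdf15 ranged over adjusted p 0.000699 to 0.0741 in those limma fits. Of all 17 alternative fits for Fgf21 in control mice, these included, 5 kept the call and 12 lost it.

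The single pair-fed control library without Xist read 2.80 CPM of Gdf15 and 4.38 CPM of Fgf21, and the other 2 read 1.10 and 6.69 CPM of Gdf15 and 4.20 and 10.7 CPM of Fgf21. It lay between them for both genes, but 1 library against 2 cannot show whether sex changes either gene. In a limma fit to the 13 libraries with Ddx3y above Xist, 1 pair-fed control library is left, whose spread is taken from the other groups, and the changes were 3.09 for Gdf15 (adjusted p 0.164) and 3.31 for Fgf21 (adjusted p 0.306). Neither was called in that fit.

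In knockout mice Gdf15 rose and Fgf21 did not pass the test. The ratio of ethanol-fed to pair-fed means was 4.24 for Gdf15 and 6.07 for Fgf21. In the limma fit the log2 change was 1.99 ± 0.60 for Gdf15 (0.74 to 3.25, adjusted p 0.0409) and 1.66 ± 0.78 for Fgf21 (0.02 to 3.29, adjusted p 0.186), in a comparison in which 9.9% of tested genes were called, 481 higher and 679 lower (687 and 568 with TMM scaling). The call for Gdf15 was lost in limma without any 1 of the 6 libraries. Fgf21 turned on ethanol-fed replicate 3: without it the limma change was 2.94 (adjusted p 0.00475), and edgeR on the recovered reads called it with all 6 (2.61, adjusted p 0.0353). With a term for Xist above Ddx3y (the sex term) neither was called by limma, at adjusted p 0.721 for Gdf15 and 0.799 for Fgf21, and no gene was. Only the pair-fed control group held both kinds of library. The sex term thus rests on its 3 libraries and cannot tell sex from ethanol.

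In mice overexpressing YAP neither hormone passed the test. The ethanol-fed to pair-fed ratio of means was 0.89 for Gdf15 and 1.62 for Fgf21. The limma changes were −0.38 ± 0.60 for Gdf15 (−1.64 to 0.87, adjusted p 0.828) and 0.43 ± 0.78 for Fgf21 (−1.21 to 2.06, adjusted p 0.859), and 1.15% of tested genes were called (47 higher and 88 lower, or 78 and 51 with TMM scaling). The intervals reach up to 0.87 for Gdf15 and 2.06 for Fgf21, so rises of up to those sizes are not excluded. For Fgf21 this takes in the change of 1.66 in knockout mice. The sex chromosome genes match between these 2 diet groups. Neither gene was called by limma without pair-fed replicate 1, the library whose Yap1 lay at the control level.

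Averaged over the 3 genotypes with equal weight, both hormones rose on ethanol. The limma change was 1.55 ± 0.35 for Gdf15 (0.83 to 2.27, adjusted p 0.00398) and 1.68 ± 0.45 for Fgf21 (0.73 to 2.62, adjusted p 0.013), where 20.5% of tested genes were called, 845 of them higher (7.21%) and 1561 lower (13.3%) (1300 and 1108 with TMM scaling). An exact permutation test of the diet labels within genotype (two-sided, 8000 arrangements, smallest p 0.00025) gave p 0.014 for Gdf15 and 0.0145 for Fgf21. Both calls held in limma without any single library, with changes of 1.36 to 1.84 for Gdf15 and 1.36 to 2.10 for Fgf21. Both calls were lost with the sex term, which rests on the 3 pair-fed control libraries. The limma changes were then 1.59 (adjusted p 0.245) and 1.98 (adjusted p 0.267), no smaller than without it.

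**Figure D2:**
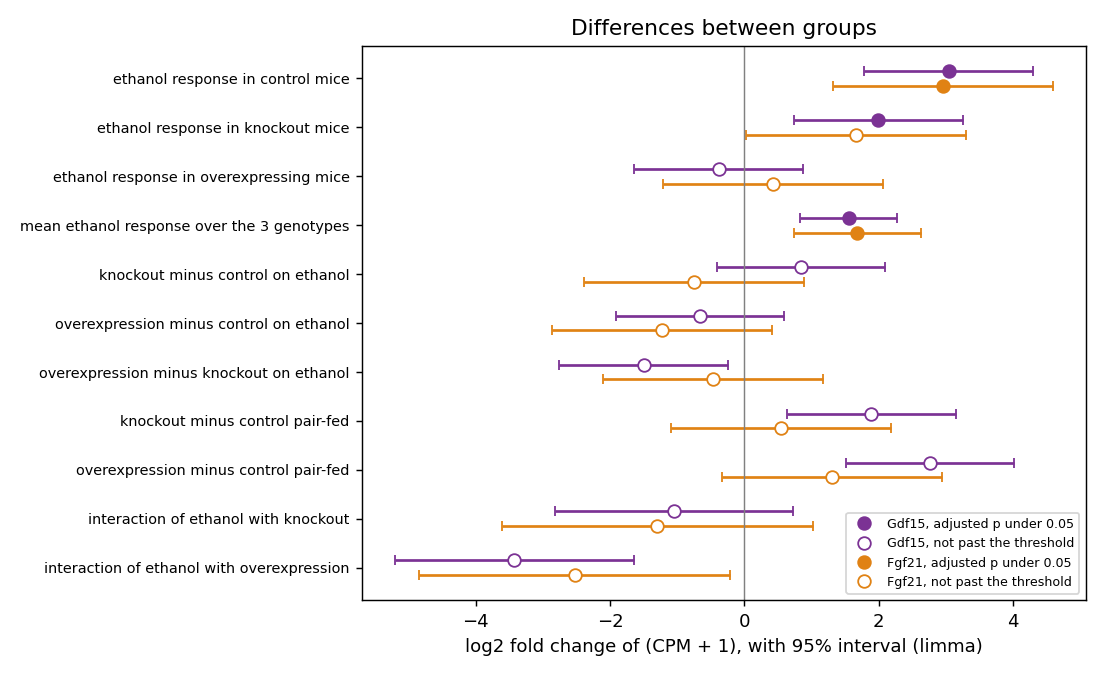
Log2 changes of Gdf15 (purple) and Fgf21 (orange) with 95% intervals in each comparison of the limma fit, on the log2(CPM + 1) scale, filled where the adjusted p passed. The ethanol response is 3.04 and 2.95 in control mice, 1.99 and 1.66 in knockout mice, and −0.38 and 0.43 in overexpressing mice.

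The next comparisons ask what YAP loss or gain did on a fixed diet. Knockout and overexpression were each set against the same control libraries. On the pair-fed diet Gdf15 averaged 13.8 CPM in knockout and 26.5 CPM in overexpressing mice, against 3.53 CPM in control mice, ratios of 3.91 and 7.51, and in both cases all 3 libraries lay above all 3 control libraries. The limma changes were 1.89 ± 0.60 for knockout (0.63 to 3.14, unadjusted p 0.00528, adjusted p 0.999) and 2.76 ± 0.60 for overexpression (1.51 to 4.02, adjusted p 0.0802). Neither passed over all genes, in comparisons where 0.00853% and 0.145% of tested genes were called. Gdf15 ranked 33rd and 28th by p-value in them and was the 18th largest difference of the second.

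Fgf21 averaged 9.29 CPM in pair-fed knockout and 17.9 CPM in pair-fed overexpressing mice, against 6.43 CPM in pair-fed control mice. The limma changes were 0.54 (adjusted p 0.999) and 1.30 (adjusted p 0.693), and both sets of libraries overlapped the controls. With 3 libraries against 3, an exact permutation test cannot go below p 0.1, the value it gave for Gdf15 in both comparisons. The 3 pair-fed knockout libraries carried Xist and the 3 pair-fed overexpressing ones did not, and the control group held both kinds. With the sex term the limma changes of Gdf15 were 1.86 for knockout and 2.82 for overexpression, and neither was called. Pair-fed overexpressing replicate 1, with Yap1 at the control level, read 18.7 CPM of Gdf15, the lowest of its group and still above every pair-fed control library.

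On ethanol no difference between genotypes passed for either hormone. The limma changes for Gdf15 were 0.84 in knockout (adjusted p 0.767) and −0.66 in overexpressing mice (adjusted p 0.837) against control mice, and −1.50 ± 0.60 in overexpressing against knockout mice (−2.76 to −0.25, adjusted p 0.222). For Fgf21 they were −0.75 (adjusted p 0.849), −1.22 (adjusted p 0.756) and −0.47 (adjusted p 0.834) in the same limma comparisons. Of all tested genes, 0.0171%, 0.102% and 1.88% were called in these comparisons. In the last one, 8 of the 9 pairs of libraries had less Gdf15 in the overexpressing than in the knockout liver. The exact permutation test of these 3 against 3 libraries gave p 0.2, where the smallest possible is 0.1.

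The interaction terms test whether the ethanol response itself differed between genotypes. Against control mice, the interaction of overexpressing mice was −3.42 ± 0.85 log2 units for Gdf15 (−5.20 to −1.65, unadjusted p 0.000702, adjusted p 0.204 by limma) and −2.52 ± 1.10 for Fgf21 (−4.84 to −0.21, unadjusted p 0.0339, adjusted p 0.64 by limma). Neither passed over all genes. Gdf15 ranked 38th of 11720 genes by p-value, limma called 0 genes (0%; 847 had an unadjusted p under 0.05), and edgeR called 0. The exact permutation test of genotype labels within diet gave p 0.045 for Gdf15 and 0.035 for Fgf21, both 0.09 after adjustment over the 4 interactions tested.

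For knockout mice the interactions were −1.05 ± 0.85 for Gdf15 and −1.30 ± 1.10 for Fgf21 (adjusted p 0.936 each by limma). Limma and edgeR again called 0 genes (0%), and 666 had an unadjusted p under 0.05. The exact permutation p was 0.465 for Gdf15 and 0.435 for Fgf21. The pair-fed control group, whose mean is the lowest of the 6 for both genes, enters both interactions.

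The barcode numbers recorded with the libraries fall into ranges, and the diets can be compared within each range that holds both. The ethanol-fed minus pair-fed difference of Gdf15 in knockout mice was 1.88, 2.08 and 2.02 log2 units in 3 ranges. In overexpressing mice it was −0.09, −1.78 and 0.72, and in control mice 3.52 and 2.95 in the 2 ranges that held both diets. For Fgf21 it was 2.68, 3.09 and −0.81 in knockout mice, 1.82, −1.20 and 0.66 in overexpressing mice, and 3.15 and 2.60 in control mice. The direction was shared by all ranges for Gdf15 in knockout and control mice and for Fgf21 in control mice, and was mixed elsewhere. Where it was shared, every ethanol-fed library lay above every pair-fed one, so any grouping of the libraries would have given it. In knockout and overexpressing mice each range held 1 library of each diet, with the same replicate number.

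No relation between the 2 hormones from liver to liver was detectable once the group means were removed. Over 18 libraries the deviations of Gdf15 and Fgf21 from their group means had a Pearson r of 0.17 (permutation p 0.458, 0.687 adjusted over 9 relations) and a Spearman rho of 0.24 (permutation p 0.411). Without the 2 libraries farthest from the median in Gdf15, r was 0.05. The deviations of Fgf21 had r 0.77 with Trib3 (permutation p 0.0583, adjusted 0.525; rho 0.51, permutation p 0.0945), a pseudokinase induced by ATF4 and CHOP, and r 0.69 with Ddit3 (permutation p 0.24; rho 0.39, permutation p 0.269). Both rest on ethanol-fed knockout replicates 2 and 3, since without them r was 0.34 for Trib3 and 0.03 for Ddit3. Those of Gdf15 had r between −0.03 and 0.16 with Ddit3, Atf3, Trib3 and Yap1, and none of the 9 relations passed.

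Ethanol-fed knockout replicate 3 lay between the other 2 libraries of its group for Gdf15 and far below both for Fgf21. It had 65.1 CPM of Gdf15, close to the 69.2 CPM of replicate 2, but 4.35 CPM of Fgf21 against 49.6 and 115.2 CPM in replicates 1 and 2. Ddit3 read 6.71 CPM in it against 125.6 and 153 CPM, and Trib3 9.43 CPM against 98.9 and 122 CPM. Asns, which makes asparagine and is a classical ATF4 target, read 2.36 CPM in it against 18.9 and 20.8 CPM. Cdkn1a, the p53 target that halts the cell cycle, read 349 CPM in it against 341 and 375 CPM, and Egr1, an early response gene, read 616 CPM against 249 and 230 CPM. The library was thus low in Fgf21 and several ATF4 and CHOP targets and not in Gdf15, Cdkn1a or Egr1. This library was chosen for description after its values were seen.

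**Figure D3:**
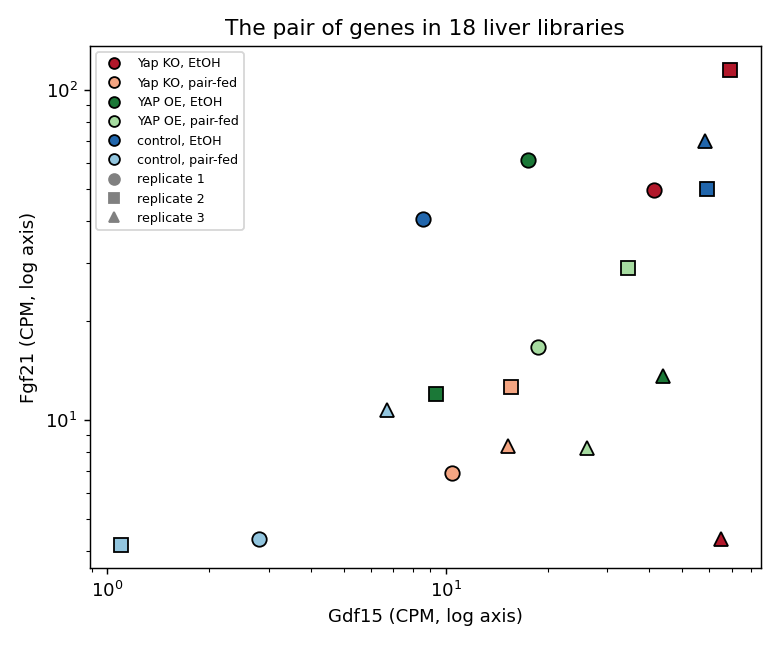
Fgf21 against Gdf15 in the 18 libraries, in CPM on log axes, with a colour for each group and a symbol for each replicate number. Ethanol-fed knockout replicate 3 lies at 65.1 CPM of Gdf15 and 4.35 CPM of Fgf21, away from the other 2 libraries of its group.

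Receptors decide where the hormones can act. Gfral, the receptor of Gdf15, had 0 reads in all 18 livers (3 reads, the limit that a count of 0 allows, are 0.517 to 0.641 CPM), and its partner Ret stayed below the filter. Furin, Pcsk5 and Pcsk6, proprotein convertases of the kind that cleave TGF-beta family precursors, were tested, and none of the 3 passed in any ethanol comparison. For Fgf21, Klb read 16.8 to 42.9 CPM over the livers. Averaged over genotypes, Klb fell on ethanol by 0.41 ± 0.12 log2 units (adjusted p 0.0253 by limma). Klb had 24.4, 19.9 and 24.4 CPM in ethanol-fed knockout, overexpressing and control mice, against 34.3, 26.1 and 32.9 CPM in the pair-fed mice of the same genotypes.

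Among the FGF receptors, Fgfr2 fell by 0.74 ± 0.16 over genotypes (adjusted p 0.00304 by limma) and in knockout mice alone by 1.79 ± 0.28 (adjusted p 0.000706 by limma). It read 16.1 ± 5.56 CPM in ethanol-fed and 56.7 ± 7.86 CPM in pair-fed knockout livers (n = 3 each). On ethanol, Fgfr2 was higher in overexpressing mice (36.0 CPM) than in knockout mice (16.1 CPM), by 1.16 ± 0.28 (adjusted p 0.0351 by limma). Fgfr1, the receptor best known to pair with Klb in fat and brain, Fgfr3 and Fgfr4, the main receptor of hepatocytes, did not pass (0.50, −0.12 and −0.26). Kl and Fap, the protease that inactivates FGF21 in human plasma, stayed below the filter.

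The integrated stress response was read through 28 genes of ATF4, CHOP and their known targets, of which 23 were tested. In knockout mice, 8 of the 23 rose on ethanol and 0 fell, with a median log2 change of 0.71 beside −0.05 over all genes and 4.1% of tested genes called higher. They were Trib3 (3.60 ± 0.60), Atf3 (3.93 ± 0.76), a stress-induced repressor, the amino acid enzymes Asns (3.01 ± 0.57), Psat1 (2.46 ± 0.58), Mthfd2 (2.51 ± 0.74) and Gpt2 (1.08 ± 0.29), the mTORC1 inhibitor Ddit4 (1.86 ± 0.48) and the amino acid transporter chain Slc3a2 (0.84 ± 0.25). Ddit3 itself, at 2.06 ± 0.70, did not pass (adjusted p 0.0669 by limma). The count was 4 or 5 without any 1 library of these groups, except 11 without ethanol-fed replicate 3, and 0 with the sex term.

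The other genotypes gave 0 called members of this list. Its median was 0.36 in control mice, where all genes had −0.09, and −0.09 in overexpressing mice, where all genes had −0.07. In control mice Trib3 read 9.12 CPM on ethanol against 2.43 CPM pair-fed (1.51 ± 0.60, adjusted p 0.19 by limma), and Ddit3 read 10.9 against 6.67 CPM. Of all tested genes, 2.7% were called in control and 1.15% in overexpressing mice. Averaged over genotypes, 5 members rose and Shmt2, a mitochondrial serine enzyme, fell, where 7.21% of all tested genes were called higher and 13.3% lower.

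On ethanol 4 members were lower in overexpressing than in knockout mice: Atf3 (−4.20 ± 0.76), Trib3 (−3.31 ± 0.60), Slc3a2 (−1.23 ± 0.25) and Sesn2 (−1.53 ± 0.38), with a list median of −0.91 beside −0.05 over all genes and 1.35% of tested genes called lower. Trib3 read 4.17 ± 1.05 CPM in ethanol-fed overexpressing mice and 76.8 ± 59.5 CPM in ethanol-fed knockout mice (n = 3 each). The summed Kupffer cell markers, which mark the liver's resident macrophages, were 213 to 250 CPM in ethanol-fed knockout libraries against 318 to 685 CPM in the other groups. Their part in these differences was not tested.

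**Figure D4:**
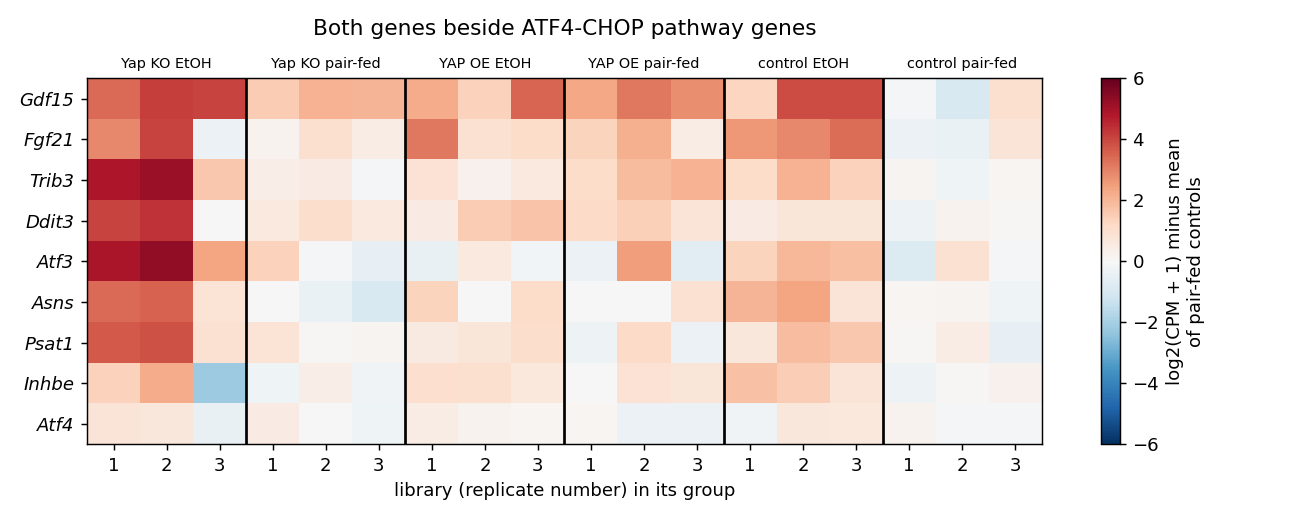
Gdf15, Fgf21 and 7 ATF4 and CHOP pathway genes (rows) in each of the 18 libraries (columns, by group), coloured by log2(CPM + 1) minus the mean of the pair-fed controls, red for higher and blue for lower. Ethanol-fed knockout replicates 1 and 2 are dark red for Trib3, Ddit3 and Atf3, while replicate 3 is pale for Fgf21 and Ddit3 and dark for Gdf15.

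Upstream of these factors stand stress kinases and sensors, among them those of the endoplasmic reticulum, and 8 of the 9 genes listed were tested. Over genotypes, 2 of the 8 were called higher and 0 lower, where 7.21% of tested genes were called higher and 13.3% lower. Ern1 (0.46 ± 0.20, adjusted p 0.106 by limma) and the kinase genes Eif2ak1 to Eif2ak4 were not among the 2. Xbp1, the transcription factor activated by IRE1, rose on ethanol in each genotype, by 1.16 ± 0.15 in knockout, 0.86 ± 0.15 in overexpressing and 0.93 ± 0.15 in control mice (adjusted p 0.000221, 0.0118 and 0.00402 by limma). Atf6, the sensor named in the series title, rose over genotypes by 0.46 ± 0.10 (adjusted p 0.00365 by limma). Among single genotypes it was called in knockout mice only, at 180 CPM on ethanol against 93.1 CPM pair-fed. It read 121 against 93.5 CPM in control and 138 against 130 CPM in overexpressing mice. Xbp1 was called in overexpressing mice and neither hormone was, at an SE of 0.15 against 0.60 for Gdf15 and 0.78 for Fgf21. Whether their responses differ was not tested.

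The other known routes to Fgf21 were read through 13 tested genes of PPARA and its targets and 7 of ChREBP and its targets. Over genotypes, 2 of the 13 PPARA genes rose (Plin2 and Cyp4a14) and 5 fell, with a list median of −0.32 beside −0.07 over all genes, of which 7.21% were called higher and 13.3% lower. Ppara itself fell by 0.82 ± 0.14, and among the others the peroxisomal enzyme Ehhadh fell by 0.79 ± 0.11, the fatty acid carrier Fabp1 by 1.02 ± 0.17 and the carnitine transferase Cpt1a by 0.52 ± 0.15. Fgf21 rose in the same comparison. Of the ChREBP genes, Mlxipl, which encodes ChREBP, fell by 0.79 ± 0.18.

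Of 14 tested genes of p53 and its targets, to which Gdf15 is known to belong, 3 were called over genotypes, where 20.5% of all tested genes were called: Cdkn1a (2.43 ± 0.33) and Aen (0.66 ± 0.19) rose and Sesn1 (−0.73 ± 0.20) fell. Cdkn1a rose on ethanol by 5.29 ± 0.57 in knockout mice and 2.51 ± 0.57 in control mice, and was not called in overexpressing mice (−0.51 ± 0.57, adjusted p 0.742 by limma). For these same contrasts Gdf15 had 1.99, 3.04 and −0.38. Both genes passed in knockout and control mice and not in overexpressing mice. For Cdkn1a neither interaction with genotype passed over all genes, at 2.78 ± 0.80 for knockout (adjusted p 0.77 by limma) and −3.02 ± 0.80 for overexpression (adjusted p 0.268 by limma).

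The genes whose levels followed each hormone most closely over the 18 libraries were taken from 8456 genes with a mean of at least 5 CPM. For Gdf15 they were Jun (r 0.88), a subunit of AP-1, Tbc1d15 (0.86), Adck4 (0.85), Mat2a (0.85), which makes S-adenosylmethionine, and Nudt4 (0.82). For Fgf21 they were Ddx20 (r 0.87), Pecam1 (0.85), an endothelial adhesion molecule, Zfp212 (0.84), Mthfd2 (0.83) and Epc2 (0.81). The points share their diet and genotype groups, so these values describe the groups as much as single livers. Gdf15 and Fgf21 had r 0.57 with each other, with Fgf21 384th in the order of Gdf15 and Gdf15 369th in the order of Fgf21.

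Jun averaged 120 ± 30.1 CPM in ethanol-fed knockout mice and 50.6 ± 26.6 CPM in pair-fed ones, 82.1 ± 55.6 CPM in ethanol-fed overexpressing mice and 67.6 ± 28.7 CPM in pair-fed ones, and 125.6 ± 47.3 CPM in ethanol-fed control mice and 30.6 ± 7.07 CPM in pair-fed ones (SD, n = 3). Jun was chosen for its likeness to Gdf15 over the same libraries, so these levels are a description. Mthfd2, a mitochondrial folate enzyme, is on the ATF4 list, and none of the nearest 5 of Gdf15 is. When group means were removed, the closest gene to Gdf15 was Sugt1 (r 0.92), which is not among those above, while Ddx20 was among the nearest 5 of Fgf21 on both measures. Sugt1 read 30.3 CPM in ethanol-fed control replicate 1, where Gdf15 was low, against 42.7 and 40.4 CPM in its group. Ddx20 read 13.6 CPM in ethanol-fed knockout replicate 3, where Fgf21 was low, against 24.9 and 25.4 CPM. No r without these libraries was computed.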

How the data were processed

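Liver RNA of 18 libraries in 6 groups of 3, grouped by GEO's labels, was read with a targeted amplicon panel. The deposited table holds CPM, reads scaled by the authors to each library's total, and the per-library files hold the same values as log2(RPM + 1), made with ampliSeqRNA 5.10.1.2 per the file headers. No aligner or build is given in the sources used here. Whole reads were recovered from the CPM (100% of values within 0.02 reads).

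The 11720 genes that reached 1 CPM in 3 or more libraries were fitted on log2(CPM + 1) with 1 mean per group in limma 3.58.1 (R 4.3.3, eBayes with trend). Tests were two-sided, with Benjamini-Hochberg adjustment over all genes and a threshold of 0.05. Means over genotypes weight genotypes equally. The fit was tested on simulated data. Alternatives were other filters, pseudocounts of 0.1 and 10, TMM factors, blocks for replicate number and barcode range, a term for sex chromosome genes, the compared groups alone, edgeR 4.0.16 (quasi-likelihood) on the recovered reads, and each library left out. The 13-library fit, the permuted interactions and the list counts by setting were added after seeing the data. Genes named are all receptor list members, up to 4 of each other list with the smallest p in the mean ethanol response, the 5 nearest patterns, and Yap1, Xist, Ddx3y, Ddit3 and Atf4. Other called members (such as Gpt2, Sesn2, Igfbp1 and Cpt1a) were named after their values were seen. The 2 genes, the lists and the alternatives were chosen with earlier results of these data known, so none is independent evidence. Promoter sequences are from RefSeq on GRCm38.p6, where both symbols matched. Some genes that meet the naming rule are not reported here.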

Additional observations from a re-analysis of the deposited data

How the results depend on the processing

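Of 412 alternative values for 22 results (2 genes in 11 comparisons), 374 kept direction and side of the threshold, 29 lost a call, 3 gained one and 6 reversed. In control mice the ethanol response of Fgf21 lost its limma call with no filter (2.95, adjusted p 0.11), a pseudocount of 10 (1.95, 0.0691), the barcode block (2.98, 0.0648), the sex term (3.31, 0.278) and the 13-library fit (3.31, 0.306). That of Gdf15 lost it with the sex term (3.09, 0.168), the compared groups alone (3.04, 0.0728) and the 13-library fit (3.09, 0.164). In knockout mice Gdf15 lost its limma call with no filter (1.99, 0.0868), a pseudocount of 0.1 (2.06, 0.0558) and the sex term (2.07, 0.721). The mean responses lost theirs with the sex term (1.59 for Gdf15 and 1.98 for Fgf21). Fgf21 in knockout mice gained a call with edgeR (2.61). Apart from fits with fewer genes or samples, the cause was not tested.

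Leaving out each library gave limma changes on ethanol of 2.58 to 3.92 for Gdf15 and 2.74 to 3.33 for Fgf21 in control mice, 1.82 to 2.22 and 0.72 to 2.94 in knockout mice, and −0.95 to 0.11 and −0.30 to 0.84 in overexpressing mice. The sign of the last 2 reversed without ethanol-fed replicate 2 (Gdf15, 0.11), and without pair-fed replicate 3 (−0.01) or ethanol-fed replicate 1 (−0.30) for Fgf21. Knockout minus control on ethanol gave −0.04 to 1.29 for Gdf15, reversed without control replicate 1 (−0.042), and −1.69 to 0.53 for Fgf21, reversed without knockout replicate 3. Overexpression minus knockout on ethanol gave −1.75 to 0.47 for Fgf21, reversed without knockout replicate 2.

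The labels number replicates 1 to 3 in each group, but deviations of same-numbered libraries correlated by −0.27 to 0.28 and in no comparison were all 3 over 0.1, so the numbers do not pair the libraries. With the replicate block, Fgf21 in control mice lost its limma call (2.95, adjusted p 0.0512) and Gdf15 in pair-fed overexpressing against control mice gained one (2.76, adjusted p 0.0446).

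Counts of called genes over all alternatives ranged from 21 to 315 for ethanol in control mice (316 in the fit reported), 0 to 1293 in knockout mice (1160), 17 to 267 in overexpressing mice (135) and 86 to 2512 for their mean (2406). On ethanol they ranged from 1 to 36 for knockout minus control (2), 0 to 22 for overexpression minus control (12) and 83 to 271 for overexpression minus knockout (220). Pair-fed, they ranged from 0 to 2 for knockout (1) and 1 to 86 for overexpression (17) minus control, and for the interactions from 0 to 3 and 0 to 27 (0 each). The 8 ATF4 and CHOP list members called in knockout mice were 5 with no filter, with a filter of 10 CPM or with the compared groups alone, and 0 with the sex term. Counting error is widest at the lowest values, such as the 6 reads of Gdf15 in 1 pair-fed control library.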

Other observations

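Other secreted factors of the liver were read through 20 tested genes. Averaged over genotypes, 4 rose on ethanol and 3 fell, with a median log2 change of 0.13 beside −0.07 over all genes, of which 7.21% were called higher and 13.3% lower. Those that rose were Fst (1.96 ± 0.30), which binds and blocks activins, the activin subunit Inhbb (1.43 ± 0.25), Igfbp1 (1.18 ± 0.39), a binding protein of insulin-like growth factors, and the carrier protein Ahsg (0.66 ± 0.15). Those that fell were Angptl6 (−0.92 ± 0.16), the inhibin subunit Inhbc (−0.80 ± 0.16) and Igfbp2 (−0.66 ± 0.18). Inhbb rose by 2.30 ± 0.44 in knockout mice and 2.39 ± 0.44 in control mice, and was not called in overexpressing mice (−0.41 ± 0.44, adjusted p 0.731 by limma). Its interaction with overexpression, −2.80 ± 0.62, did not pass over all genes (adjusted p 0.195 by limma).

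Of 8 tested genes that respond to FGF signalling, 6 rose over genotypes and 0 fell, with 7.21% of all tested genes called higher. They include the early response genes Egr1 (2.60 ± 0.24) and Fos (1.36 ± 0.25) and the feedback inhibitors of the MAP kinase pathway Dusp6 (0.83 ± 0.19) and Spry4 (0.70 ± 0.17). These genes also respond to other growth factors. Egr1 rose in each genotype, by 2.83 ± 0.42 in knockout, 2.66 ± 0.42 in overexpressing and 2.30 ± 0.42 in control mice, and Dusp6 rose in control mice (1.27 ± 0.34, adjusted p 0.0484 by limma).

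In knockout mice, ethanol-fed replicate 3 was also low in Inhbe, a liver activin subunit chosen after its values were seen. It read 7.43 CPM in that library against 98.5 and 173 CPM in the other 2.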
